A study of Mus musculus with 8 samples.

Results

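The genes described here are 49 genes of DNA replication and mitosis, taken by symbol from the 30890 genes of the table. The 29 S-phase members license origins, unwind and copy DNA, supply nucleotides, start S phase or keep up DNA methylation. Most of the 20 mitotic members act in entry into mitosis, the spindle, its checkpoint or cell division. The mitotic class also holds Mki67, a marker of cycling cells, and Ccna2, the cyclin of late S phase and G2. All 49 members were found, and all 49 passed the filter on low counts that left 16723 genes for testing. They were measured by RNA sequencing of whole embryonic kidneys from C57BL/6 mice at E12.5, cultured for 72 h in droplets on a floating filter membrane with either 0.1% DMSO, the solvent control (n = 4), or 5 μM CHIR99021 (n = 4), an inhibitor of glycogen synthase kinase 3 that raises β-catenin. The study took the left kidney of an embryo as the control and the right kidney as the treated one, and left out kidneys without the typical response of Wnt target genes, so the treated samples were not an unselected set. The kidneys were wild type in both groups, with no transgene or deletion in the labels, and the comparison asked how the treatment changed gene expression.

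Before a cell can copy its DNA, the ORC, Cdc6 and Cdt1 proteins load the MCM helicase onto origins, and Cdc45 and the GINS complex then join it to open the double helix. Cyclin E with Cdk2 starts S phase and E2F factors drive transcription of many replication genes, while cyclins A and B with Cdk1 take the cell into mitosis, where kinases, motor proteins and the spindle checkpoint separate the chromosomes. In the embryonic kidney, proliferation of nephron progenitors and of the branching ureteric epithelium sets how far the organ grows.

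The sequences before the starts of these genes differ between replication and mitosis genes, and 5 stretches are shown because they carry the letters known for each class. Promoter windows from RefSeq (GRCm38.p6, 250 bases before to 50 bases after a start) were matched by symbol for 40 of the 49 members, in 42 windows. In the lines that follow, written 5′ to 3′ on the strand of the gene, capitals mark the E2F letters (TTTCCCGC, TTTCGCGC, TTTGCCGC or TTTGGCGC), the cell cycle homology letters (TTTGAA, hereafter CHR) and the CCAAT box, each searched on both strands, so that GCGGGAAA, GCGCCAAA, TTCAAA and ATTGG are matches as well. Each stretch lies before the start that RefSeq gives, runs from 20 bases before the first match to 20 bases after the last, and stops where an annotated exon begins.
Cdc6: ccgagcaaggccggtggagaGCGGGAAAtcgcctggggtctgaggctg
Mcm5: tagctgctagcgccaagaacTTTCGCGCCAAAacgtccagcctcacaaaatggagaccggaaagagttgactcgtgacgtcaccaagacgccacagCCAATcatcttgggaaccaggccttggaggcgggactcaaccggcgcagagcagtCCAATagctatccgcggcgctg
Mki67: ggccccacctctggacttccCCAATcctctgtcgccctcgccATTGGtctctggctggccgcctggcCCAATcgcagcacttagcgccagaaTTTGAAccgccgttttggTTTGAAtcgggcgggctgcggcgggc
Ccnb2: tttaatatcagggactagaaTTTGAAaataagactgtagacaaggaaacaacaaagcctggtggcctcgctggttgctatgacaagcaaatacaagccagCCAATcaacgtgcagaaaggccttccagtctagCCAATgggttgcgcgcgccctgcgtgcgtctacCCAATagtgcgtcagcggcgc
Cdk1: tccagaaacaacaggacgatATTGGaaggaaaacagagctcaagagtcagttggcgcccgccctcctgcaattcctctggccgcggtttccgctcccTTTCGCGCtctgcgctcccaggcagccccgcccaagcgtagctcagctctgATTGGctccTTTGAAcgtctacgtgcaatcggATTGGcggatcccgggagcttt
The Cdc6 stretch lies at chr11:98907993-98908040 (plus strand), in an intron of the gene as GENCODE M21 places it, and holds the E2F letters alone, 138 bases before the start that RefSeq gives. The Mcm5 stretch lies at chr8:75109336-75109508 (plus strand), and its 2 E2F matches overlap each other. The Mki67 stretch lies at chr7:135716452-135716587 (minus strand), with 2 CHR matches and 3 CCAAT boxes. The Ccnb2 stretch lies at chr9:70421555-70421741 (minus strand), with 1 CHR match and 3 CCAAT boxes. The Cdk1 stretch lies at chr10:69352939-69353140 (minus strand) and holds all 3 kinds of letters. These last 4 stretches lie upstream of the annotated gene.

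Over the windows of the members, the E2F letters were present in 11 of 25 S-phase windows (44.0%) and in 1 of 17 mitotic windows (5.88%), which was that of Cdk1, against 2.26% of all 32851 windows of this length. The CHR letters were present in 3 of the 25 S-phase windows and in 13 of the 17 mitotic windows (76.5%), against 17.9% of all windows. A CCAAT box was present in 72.0% of the S-phase windows and in 94.1% of the mitotic windows, against 37.4% of all. Split by the response to the treatment described next, 23.5% of the windows of members called lower held E2F letters, 35.3% CHR letters and 82.4% a CCAAT box, and 50.0%, 50.0% and 75.0% of the 8 windows of members not called. A match is a description of letters in a window and does not show binding of a factor.

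Replication and mitosis genes were lower in the kidneys treated with CHIR99021. Of the 49 members, 39 fell (79.6%), 0 rose and 10 were not called, by edgeR's quasi-likelihood test at an adjusted p under 0.05. Of all 16723 genes tested, 25.0% were called lower and 23.7% higher. The median log2 fold change of CHIR99021 over DMSO was -0.31 over the members and -0.0029 over all genes tested. Single members ranged from -1.14 for Cdc6 to 0.08 for E2f1, 15 of the 49 fell by over 0.5 on the log2 scale and 1 by over 1. The changes were therefore moderate, and 47 of the 49 values were negative. For 36 members the 4 treated samples all lay below the 4 control samples, where 23.4% of all genes tested did so, and 41 members were lower in the treated kidney of all 4 pairs, where 30.9% of all genes were. No member was higher in all 4 pairs (30.2% of all genes) or without overlap (22.7% of all genes). These are bulk samples, in which fewer cycling cells and less RNA per cell cannot be told apart.

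**Figure D1:**
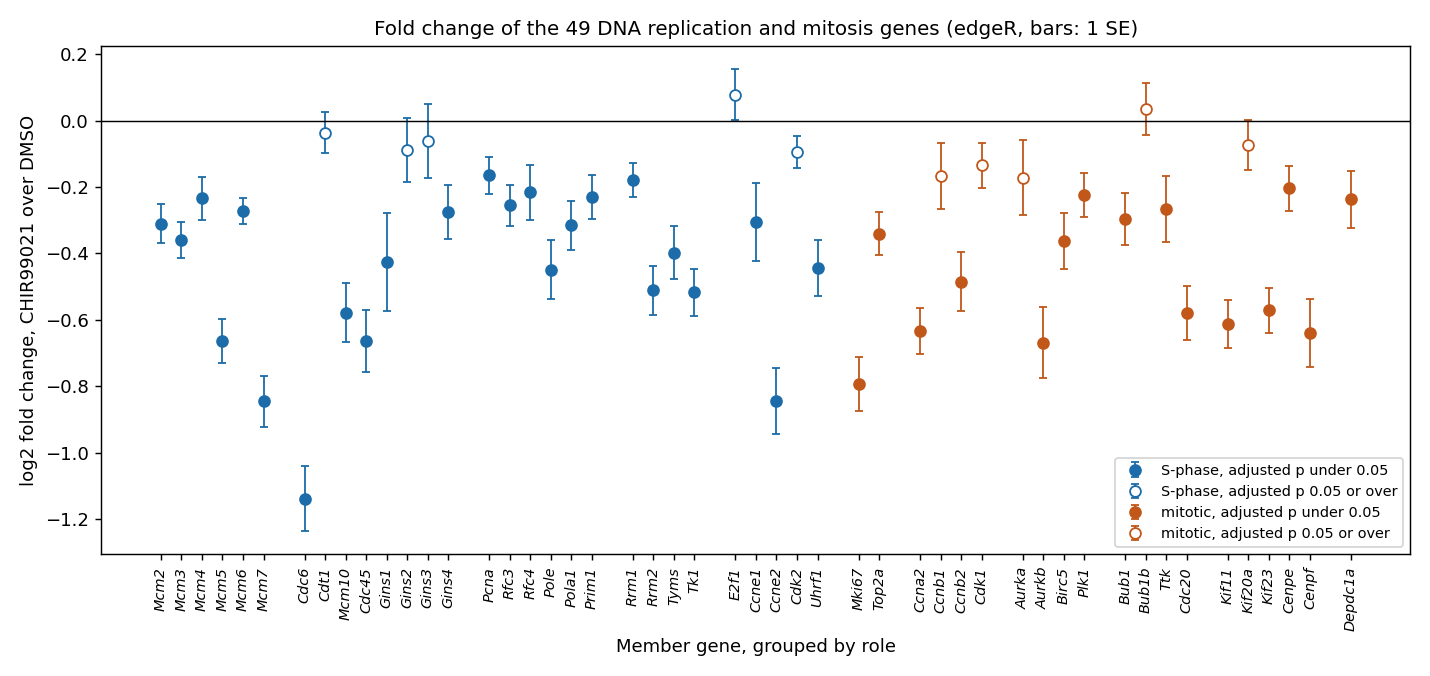
Log2 fold change of CHIR99021 over DMSO (vertical axis) for each of the 49 members, grouped by role (4 samples a group). Bars give 1 standard error, derived from the F statistic of edgeR's test. Filled points passed an adjusted p of 0.05 and open points did not; the 39 filled points all lie below 0, with Cdc6 the lowest at -1.14.

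The depth of the samples was even, from 14599082 to 17751992 counts for DMSO and from 14616300 to 16872129 for CHIR99021. The share of mitochondrial transcripts was higher in treated kidneys (3.48 to 4.14%) than in controls (2.47 to 3.20%), and fewer genes had any count (23646 to 23938 against 24243 to 24912). Levels are given as CPM, counts scaled by TMM to the same library size. Per kilobase of gene, the members stood between 4.20 FPKM (fragments per gene length and library size) for Gins2 and 72.4 FPKM for Pcna in the mean of the DMSO samples, with a median of 11.2 FPKM for the S-phase and 15.8 FPKM for the mitotic members. After Pcna, the highest were Mki67 at 48.2 FPKM, Top2a at 46.4 FPKM and Mcm6 at 41.4 FPKM.

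All 6 subunits of the MCM helicase, the ring that unwinds DNA at the fork, fell, with a median log2 fold change of -0.34. Mcm7 had the smallest p of the 6 and stood at 169, 170, 143 and 152 CPM in DMSO replicates 1 to 4 and at 100, 79.3, 87.8 and 85.3 CPM in CHIR99021 replicates 1 to 4. The groups were far apart, and the change was -0.85 on the log2 scale (SE 0.08, edgeR adjusted p = 2.6e-06), a fall of 44.3%. Of the exon bases of Mcm7, 12.6% overlap other genes, among them Ap4m1 and Cops6 on the opposite strand, and the sources used here do not give whether counting used strand. Mcm7 also shares 23.3% of its 50-base exon stretches with other genes, chiefly Gm5487. Mcm4 had the largest p, with 140, 126, 119 and 129 CPM under DMSO and 115, 97.5, 115 and 110 CPM under CHIR99021. Its highest treated sample lay just below its lowest control sample, and the change was -0.23 (SE 0.06, edgeR adjusted p = 0.0090). Mcm5 fell by 0.66, Mcm3 by 0.36, Mcm2 by 0.31 and Mcm6 by 0.27 on the log2 scale. The fitted changes of the subunits of this ring thus ranged from -0.85 to -0.23.

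Among the 8 genes of origin licensing and helicase activation, 5 fell and 3 were not called, and they held both the largest change of all members and changes near 0. Cdc6, which loads the helicase and lies at chr11:98907801-98923940 in GRCm38, stood at 24.7, 25.0, 23.1 and 22.3 CPM under DMSO and at 10.8, 9.17, 12.3 and 10.9 CPM under CHIR99021. Every treated sample was far below every control sample, and the change was -1.14 (SE 0.10, edgeR adjusted p = 1.1e-06), a fall of 55%. Cdt1, the partner of Cdc6 in loading, had a log2 fold change of -0.04 (SE 0.06, edgeR adjusted p = 0.66), with means of 38.5 CPM ± 2.28 (SD, n = 4) and 37.6 CPM ± 1.41. Cdc45, which activates the loaded helicase, fell by 0.66 and Mcm10, which helps it to do so, by 0.58 on the log2 scale.

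The 4 GINS subunits bind Cdc45 and the helicase, and 2 of them were called. Gins1 fell by 0.43 and Gins4 by 0.27 on the log2 scale. Gins3, with the largest p of the 8, stood at 11.1, 11.6, 14.7 and 13.7 CPM under DMSO and at 11.8, 11.6, 12.8 and 12.9 CPM under CHIR99021. The groups overlapped, with a log2 fold change of -0.06 (SE 0.11, edgeR adjusted p = 0.68). Gins2 had a log2 fold change of -0.09 (SE 0.10, edgeR adjusted p = 0.47), and 67.3% of its exon bases overlap Gse1 on the opposite strand, so its counts are uncertain. These 2 subunits took the other sign in some alternative fits, with values of at most 0.08. The call of Gins1 was lost when any 1 of DMSO replicates 1 to 3 or CHIR99021 replicates 2 to 4 was left out (adjusted p up to 0.090).

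All 6 genes of the sliding clamp, its loader and the polymerases fell, by less than the helicase did in the median (-0.24). Pcna, the clamp that holds polymerases on DNA and a common marker of S phase, stood at 167, 168, 165 and 165 CPM under DMSO and at 165, 139, 150 and 139 CPM under CHIR99021. CHIR99021 replicate 1 lay within the control range and the other treated samples below it. The change was -0.17 (SE 0.06, edgeR adjusted p = 0.028), the smallest among the called members, and the call was lost without DMSO replicate 2 or any of CHIR99021 replicates 2 to 4 (adjusted p up to 0.095). Pcna shares 19.1% of its 50-base exon stretches with other genes, chiefly the copy Pcna-ps2.

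Pole, the catalytic subunit of the leading-strand polymerase, had the smallest p of this group, with 65.2, 63.3, 51.8 and 55.2 CPM under DMSO and 43.9, 37.5, 47.4 and 43.9 CPM under CHIR99021. The groups did not overlap, and the change was -0.45 (SE 0.09, edgeR adjusted p = 0.0010). Rfc4, a subunit of the clamp loader, had the largest p, with 18.1, 17.2, 16.7 and 16.9 CPM under DMSO and 15.5, 13.7, 15.4 and 14.7 CPM under CHIR99021. All its treated samples lay below the control samples, by a log2 fold change of -0.22 (SE 0.08, edgeR adjusted p = 0.044). With the pair of kidneys as a block, the edgeR adjusted p of Rfc4 was 0.056, and the call was also lost without any 1 sample except CHIR99021 replicate 1 (adjusted p up to 0.13). Of the exon bases of Rfc4, 12.7% overlap Eif4a2 on the opposite strand. Pola1, the catalytic subunit of the priming polymerase, fell by 0.32, Rfc3 of the clamp loader by 0.26 and the primase subunit Prim1 by 0.23 on the log2 scale.

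The 4 genes of nucleotide supply fell, with the largest median of the S-phase groups (-0.45). Tk1, which salvages thymidine, stood at 33.2, 34.0, 36.7 and 34.5 CPM under DMSO and at 24.7, 21.6, 24.7 and 25.8 CPM under CHIR99021. The groups were well separated, with a change of -0.52 (SE 0.07, edgeR adjusted p = 6.0e-05). Rrm1, the large subunit of ribonucleotide reductase, stood at 222, 214, 203 and 200.4 CPM under DMSO and at 190, 171, 192 and 189 CPM under CHIR99021. The samples did not overlap, and the change was -0.18 (SE 0.05, edgeR adjusted p = 0.011). Its partner subunit Rrm2 fell by 0.51 (SE 0.07) and thymidylate synthase Tyms by 0.40 (SE 0.08) on the log2 scale.

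Of the 5 genes of S-phase entry and the upkeep of DNA methylation, 3 fell. Ccne2, 1 of the 2 cyclins E that activate Cdk2, stood at 23.2, 20.8, 20.3 and 20.9 CPM under DMSO and at 12.2, 9.91, 13.1 and 12.3 CPM under CHIR99021. The groups were far apart, with a change of -0.84 (SE 0.10, edgeR adjusted p = 1.6e-05), though 17.4% of its exon bases overlap Ints8 on the opposite strand. Ccne1 fell by 0.31 on the log2 scale (SE 0.12, edgeR adjusted p = 0.046), and its call was lost when DMSO replicate 3 or 4, or treated replicate 1, 2 or 4, was omitted (adjusted p up to 0.13). Uhrf1, which carries DNA methylation over to the new strand, fell by 0.44 on the log2 scale (SE 0.09, edgeR adjusted p = 0.0012). It shares 15.4% of its 50-base exon stretches with other genes, chiefly Gm5648 and Gm15953.

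E2f1, a transcription factor for replication genes, stood at 27.0, 23.2, 26.2 and 24.1 CPM under DMSO and at 29.0, 26.5, 26.2 and 24.5 CPM under CHIR99021. The groups overlapped, with a log2 fold change of 0.08 (SE 0.08, edgeR adjusted p = 0.43), the highest value of the 49 members, which took the other sign on the FPKM scale. Cdk2, the kinase that cyclins E activate, had a log2 fold change of -0.09 (SE 0.05, edgeR adjusted p = 0.13), although its 4 treated samples all lay below its control samples. It was called lower with upper-quartile scaling and on the FPKM scale. In those fits the median of all genes was itself lower than in the main fit. It was -0.05 with upper-quartile scaling, and -0.10 and -0.13 on the FPKM scale with pseudocounts of 1 and 0.1.

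Among the mitotic members, the nuclear antigen Mki67 (chr7:135689784-135716361 in GRCm38), known as Ki-67 and used to mark cycling cells, had the largest fall. It stood at 514, 464, 441 and 439 CPM under DMSO and at 264, 227, 286 and 296 CPM under CHIR99021. The groups were far apart, with means of 464 CPM ± 34.9 (SD, n = 4) and 268 CPM ± 30.6, a change of -0.79 (SE 0.08, edgeR adjusted p = 1.0e-05) and a fall of 42.3%. Top2a, the topoisomerase that untangles sister chromatids, stood at 408, 399.9, 413 and 380.2 CPM under DMSO and at 309, 276, 335 and 345 CPM under CHIR99021. It did not overlap between the groups either, but its change was smaller, at -0.34 (SE 0.06, edgeR adjusted p = 0.00079).

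Of the mitotic cyclins and their kinase, 2 fell and 2 were not called. Ccna2, the cyclin of late S phase and G2, stood at 123, 114, 114 and 106 CPM under DMSO and at 74.4, 64.2, 77.2 and 79.2 CPM under CHIR99021. All treated samples were well below the control samples, with a change of -0.63 (SE 0.07, edgeR adjusted p = 8.2e-06), and some of its exon bases overlap Exosc9 on the opposite strand. Ccnb2 fell by 0.48 on the log2 scale (SE 0.09, edgeR adjusted p = 0.00069). Ccnb1, the other B cyclin here, stood at 95.6, 93.4, 105 and 90.1 CPM under DMSO and at 79.6, 69.7, 96.7 and 95.8 CPM under CHIR99021. Replicates 1 and 2 of the treated group lay below all controls and replicates 3 and 4 within their range, and the change was not called (-0.17, SE 0.10, edgeR adjusted p = 0.19). Ccnb1 shares 23.4% of its 50-base exon stretches with other genes, chiefly the pseudogene Ccnb1-ps. Cdk1, the kinase that these cyclins activate, had a log2 fold change of -0.14 (SE 0.07, edgeR adjusted p = 0.12).

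**Figure D2:**
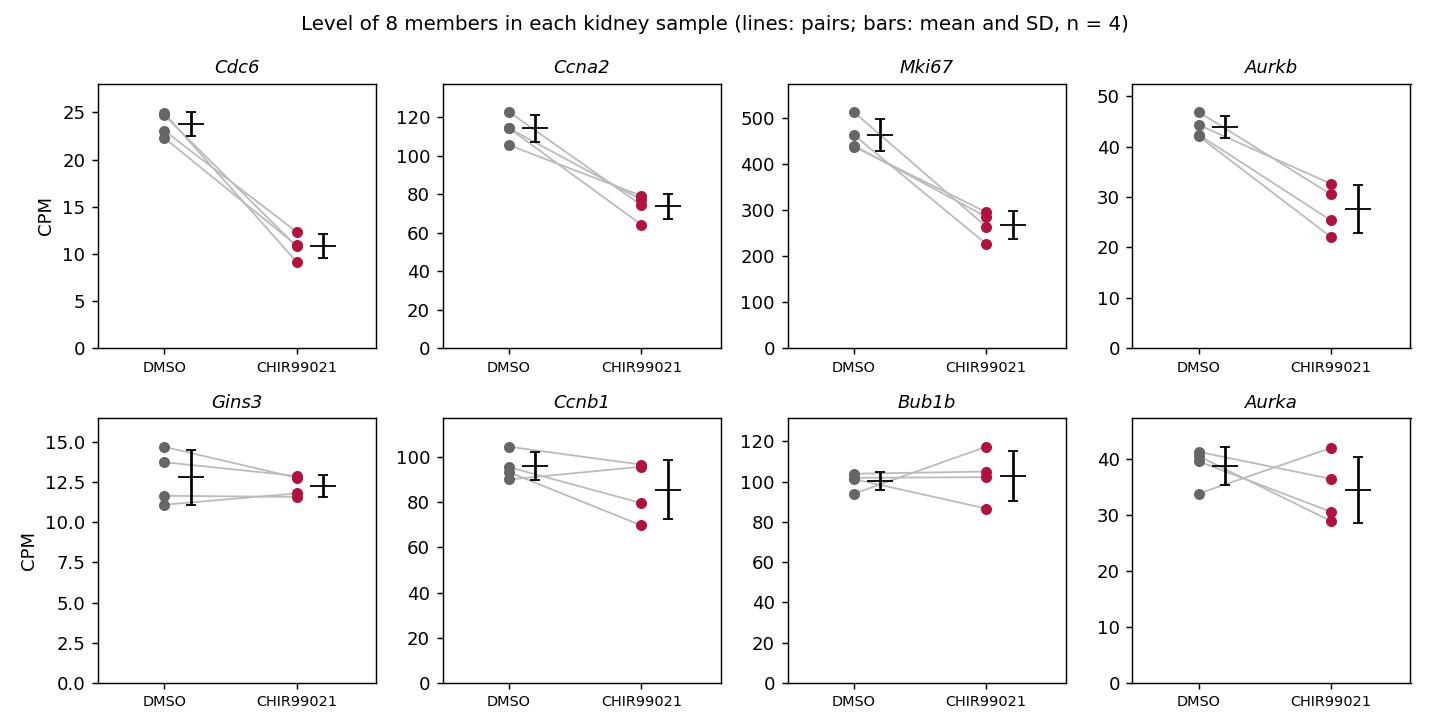
Level (CPM, vertical axes starting at 0) of 8 members in each DMSO and CHIR99021 sample, with lines joining the samples of a pair and bars giving the mean and SD (n = 4). In the upper row Cdc6, Ccna2, Mki67 and Aurkb separate the groups; in the lower row Gins3, Ccnb1, Bub1b and Aurka overlap.

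Of the mitotic kinases and the passenger complex, which corrects the attachment of chromosomes to the spindle, 3 of 4 genes fell. Aurkb, the kinase of that complex, stood at 42.4, 42.1, 46.9 and 44.3 CPM under DMSO and at 25.3, 22.0, 30.5 and 32.6 CPM under CHIR99021. The groups were far apart, with a change of -0.67 (SE 0.11, edgeR adjusted p = 0.00025). Its partner Birc5, known as survivin, fell by 0.36, and Plk1, a kinase of mitotic entry and spindle assembly, by 0.22 on the log2 scale. Aurka, the related kinase of the spindle poles, stood at 39.6, 40.5, 41.3 and 33.8 CPM under DMSO and at 30.6, 28.9, 36.5 and 42.0 CPM under CHIR99021. Treated replicates 1 and 2 lay below all controls and replicate 4 above them, and the change was not called (-0.17, SE 0.11, edgeR adjusted p = 0.24). Without CHIR99021 replicate 4 the log2 fold change of Aurka was -0.28 and it was called (adjusted p = 0.033), while it was not called with any other sample omitted (adjusted p up to 0.51, without CHIR99021 replicate 2).

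The spindle checkpoint delays separation of the chromosomes until all are attached, and Cdc20, which it holds back, then activates the ubiquitin ligase that ends mitosis. Cdc20 stood at 54.2, 54.0, 52.7 and 59.7 CPM under DMSO and at 36.0, 31.4, 38.4 and 41.7 CPM under CHIR99021. The groups did not overlap, with a change of -0.58 (SE 0.08, edgeR adjusted p = 7.2e-05). The checkpoint kinase Bub1 fell by 0.30 and Ttk, known as Mps1, by 0.27 on the log2 scale. The call of Ttk was lost without any 1 DMSO sample or CHIR99021 replicate 2 or 3 (adjusted p up to 0.084), and without CHIR99021 replicate 2 its log2 fold change was -0.16. Bub1b, the checkpoint protein known as BubR1, stood at 102, 101, 104 and 94.0 CPM under DMSO and at 102, 86.6, 105 and 117 CPM under CHIR99021. Its treated samples lay on both sides of the controls, with a log2 fold change of 0.04 (SE 0.08, edgeR adjusted p = 0.74). This value took the other sign with upper-quartile scaling and on the FPKM scale, where the median of all genes was lower as well. It did so too with limma on log2 counts (-0.025), where the median of all genes was higher at 0.04, and without CHIR99021 replicate 4 (-0.030).

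Of the 5 motor and kinetochore genes, 4 fell, with a median of -0.57. Kif23, a motor of the central spindle in cytokinesis, stood at 98.7, 93.9, 94.3 and 89.3 CPM under DMSO and at 60.2, 56.0, 68.3 and 68.8 CPM under CHIR99021. The groups were far apart, with a change of -0.57 (SE 0.07, edgeR adjusted p = 1.8e-05). Cenpf, a kinetochore protein, had a log2 fold change of -0.64 and Kif11, the motor that pushes spindle poles apart, of -0.61. Cenpe, a kinetochore motor, fell by 0.20, and its call was lost when DMSO replicate 1 or 3, or treated replicate 2, was omitted (adjusted p up to 0.066), with -0.13 without the last. Kif20a, another motor of cytokinesis, stood at 52.3, 55.6, 56.8 and 49.5 CPM under DMSO and at 50.5, 44.2, 52.9 and 55.9 CPM under CHIR99021. The groups overlapped, with a log2 fold change of -0.07 (SE 0.08, edgeR adjusted p = 0.45), and 29.3% of its exon bases overlap Cdc23 on the opposite strand.

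Depdc1a, a gene expressed in mitosis that the study names, stood at 44.4, 47.3, 40.8 and 38.3 CPM under DMSO and at 34.4, 32.1, 40.6 and 38.0 CPM under CHIR99021. Treated replicate 3 lay within the control range, and the change was -0.24 (SE 0.09, edgeR adjusted p = 0.037). With the pair of kidneys as a block, the edgeR adjusted p of Depdc1a was 0.061, and the call was lost when replicate 1 or 2 of either group was omitted (adjusted p up to 0.12). Of its 50-base exon stretches, 60.8% occur in other genes as well, chiefly Gm5596, so its counts are uncertain.

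S-phase and mitotic members had close median changes. Of the S-phase members 24 of 29 fell (82.8%) and of the mitotic members 15 of 20 (75.0%), with median log2 fold changes of -0.31 and -0.32. The mean log2 CPM over the S-phase members was 5.61, 5.57, 5.56 and 5.55 in DMSO replicates 1 to 4 and 5.28, 5.07, 5.24 and 5.21 in CHIR99021 replicates 1 to 4. Over the mitotic members it was 6.37, 6.35, 6.38 and 6.28 under DMSO and 5.93, 5.76, 6.06 and 6.13 under CHIR99021. In both classes every treated sample lay below every control sample. The S-phase level minus the mitotic level was -0.76, -0.78, -0.81 and -0.73 under DMSO and -0.65, -0.69, -0.81 and -0.92 under CHIR99021, on the log2 scale. The treated values spread around the control values, with means of -0.77 ± 0.03 (SD, n = 4) and -0.77 ± 0.12, which is a difference of 0.0039. Since the members were chosen with results known, this difference was not tested. The closeness holds for these members only. Among the other genes of the cell cycle listed below, the median was -0.42 for mitosis genes (82.7% lower) and -0.21 for replication genes (53.7% lower).

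**Figure D3:**
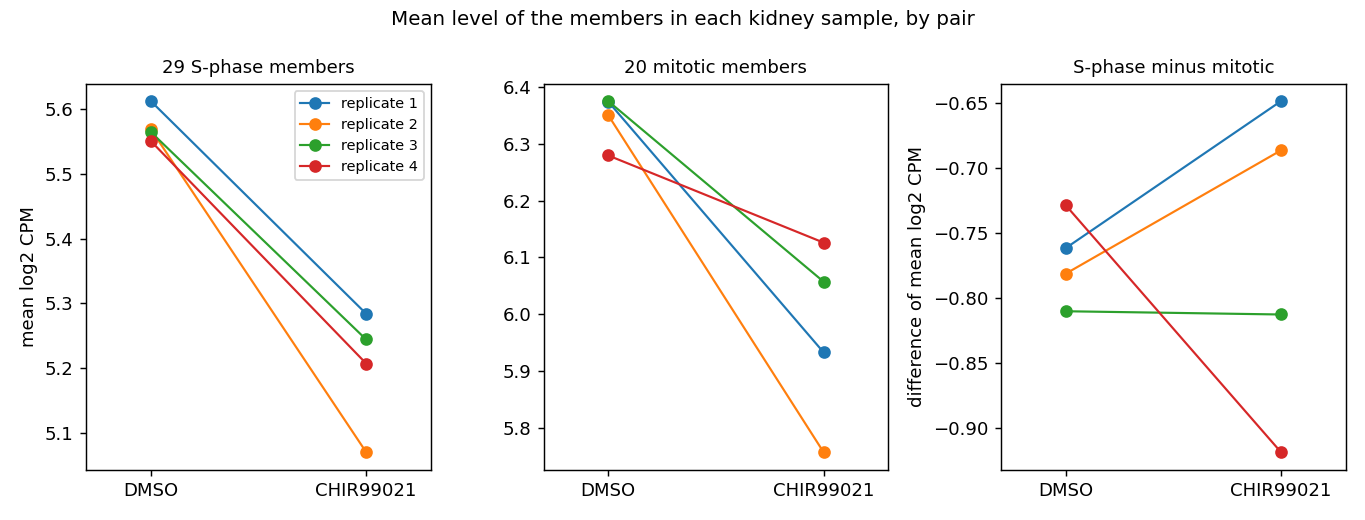
Mean log2 CPM of the 29 S-phase members (left), of the 20 mitotic members (middle) and their difference (right) in each sample, with lines joining the DMSO and CHIR99021 samples of a pair; the vertical axes do not start at 0. Both levels are lower with CHIR99021 in all 4 pairs, while the difference is higher in pairs 1 and 2, level in pair 3 and lower in pair 4.

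The 2 classes varied differently between the treated kidneys. The median change within a pair was -0.26, -0.46, -0.29 and -0.34 for the S-phase members in pairs 1 to 4, and -0.41, -0.58, -0.25 and -0.13 for the mitotic members. Pair 2 showed the largest fall in both classes, and pair 4 the smallest in the mitotic class alone. Of the 29 S-phase members 27, 28, 28 and 27 were lower in the treated kidney of pairs 1 to 4, and of the 20 mitotic members 19, 20, 19 and 16. CHIR99021 replicate 2 was the lowest treated sample for 24 S-phase and 18 mitotic members. The highest treated sample was replicate 1 for 16 S-phase members and replicate 4 for 15 mitotic members, and DMSO replicate 4 was the lowest control for 14 mitotic members. All members were read in the same samples, so they do not count as separate observations. The counts by single pair and by replicate were not taken over all genes. The SD was 7.52% of the mean CPM in the median S-phase member and 11.6% in the median mitotic member among treated samples, and 5.41% and 5.49% among controls. Without CHIR99021 replicate 2, 20 S-phase and 12 mitotic members were called lower, with medians of -0.27 and -0.25. Of all genes, 4046 were called lower without that sample, against 4180 with all samples.

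**Figure D4:**
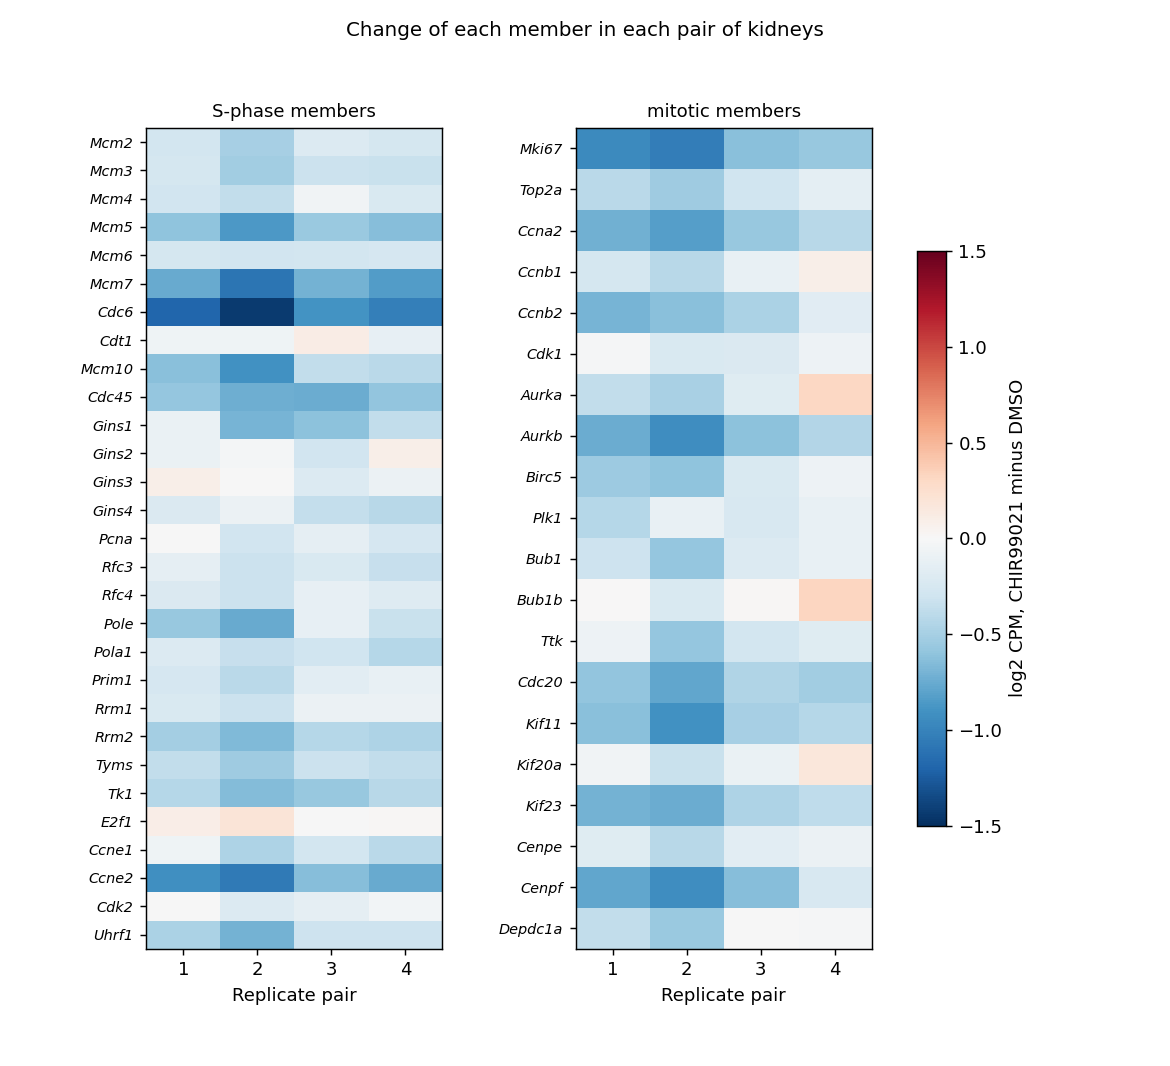
Log2 CPM of the CHIR99021 kidney minus that of the DMSO kidney in each of the 4 pairs (columns) for each member (rows), in blue where the treated kidney was lower and in red where it was higher. Pair 2 is the darkest in both classes, and the reddest cells of the mitotic members, those of Aurka, Bub1b, Kif20a and Ccnb1, lie in pair 4.

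Some close relatives within the set had unequal changes, while others, such as Rfc3 (-0.26) and Rfc4 (-0.22), had close ones. The log2 ratio of the CPM of 2 relatives was taken in each sample for 4 pairs of genes, which were chosen after their values were seen and are given without a test. The ratio of Ccne2 to Ccne1 was 0.26 ± 0.26 (SD, n = 4) under DMSO and -0.28 ± 0.02 under CHIR99021, a difference of -0.54. That of Aurkb to Aurka was 0.18 ± 0.15 under DMSO and -0.32 ± 0.07 under CHIR99021, a difference of -0.50. The ratio of Bub1 to Bub1b was -0.63 ± 0.06 under DMSO and -0.96 ± 0.03 under CHIR99021, and that of Ccnb2 to Ccnb1 was -0.87 ± 0.07 and -1.19 ± 0.16. In all 4 the treated samples lay below the control samples without overlap, and the treated kidney was lower in all 4 pairs of kidneys. Each ratio has the gene with the larger fall on top, so the shared direction follows from that choice. How many ratios of other gene pairs lie without overlap was not counted. The exon overlap of Ccne2 and the shared stretches of Ccnb1 given above apply to their ratios as well.

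Other genes of the cell cycle, listed with earlier results known, were mostly lower as well. Of 52 other mitosis genes tested, 43 fell (82.7%) and 1 rose, with a median log2 fold change of -0.42. The condensin subunit Smc2 (-0.47) and the kinetochore subunits Spc25 (-0.76) and Spc24 (-0.88) had the smallest p of those that fell, while the checkpoint protein Bub3 rose by 0.20. Of 41 other replication genes tested, 22 fell (53.7%) and 2 rose, with a median of -0.21. Those with the smallest p were Clspn (-0.65) and Timeless (-0.64), which guard the fork, and Pold1 (-0.53), the catalytic subunit of the lagging-strand polymerase. Dut, which removes dUTP, rose by 0.47 and the origin subunit Orc3 by 0.23. Of 18 genes of the replication checkpoint and repair, 12 fell (66.7%) and 0 rose, with a median of -0.41, among them the checkpoint kinase Atr (-0.55) and Bard1 (-1.09).

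Regulators of the cell cycle were listed separately. Of 18 transcription regulators, 10 fell (55.6%) and 0 rose, with a median log2 fold change of -0.23. Tfdp2, a partner of E2F factors, stood at 103 CPM ± 7.81 (SD, n = 4) under DMSO and 44.0 CPM ± 4.17 under CHIR99021 (log2 fold change -1.23, edgeR adjusted p = 5.5e-08). E2f2 fell by 0.93 and the retinoblastoma gene Rb1, which restrains E2F factors, by 0.60 on the log2 scale. Of 15 G1 cyclins, CDK inhibitors, their kinases and Myc, 9 fell (60.0%) and 4 rose, with a median of -0.45. Ccnd1, cyclin D1, fell from 247 CPM ± 28.0 to 82.7 CPM ± 5.71 (log2 fold change -1.58, edgeR adjusted p = 4.7e-08), and Myc from 81.5 CPM ± 11.4 to 22.7 CPM ± 3.68 (-1.84, edgeR adjusted p = 1.5e-06). Ccnd3 fell by 0.84 on the log2 scale. The CDK inhibitor Cdkn2b rose from 5.15 CPM ± 1.39 to 18.3 CPM ± 2.54 (1.83, edgeR adjusted p = 8.7e-06), the kinase Cdk4 rose by 0.36, and Cdkn2a rose from 5 counts over the 4 DMSO samples to 84 over the 4 CHIR99021 samples.

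**Figure D5:**
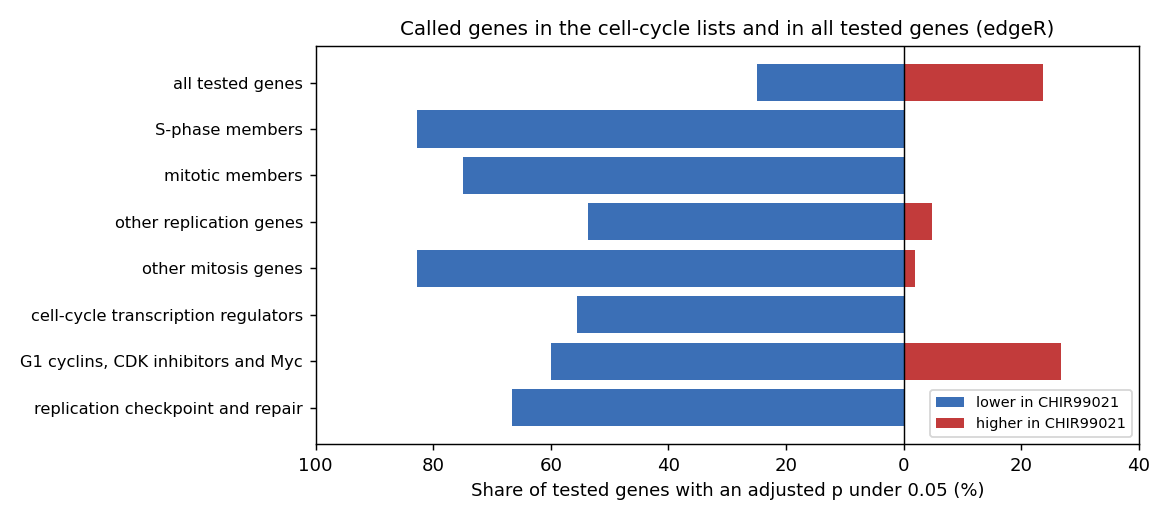
Share of tested genes (%, horizontal axis) called lower (left, blue) or higher (right, red) by edgeR at an adjusted p under 0.05, for all 16723 genes tested, the 2 classes of members and 5 further cell cycle lists. The S-phase members (82.8%), the mitotic members (75.0%) and the other mitosis genes (82.7%) stand furthest above the 25.0% of all genes.

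Most markers of nephron progenitors, ureteric epithelium, endothelium and macrophages were lower as well, where 25.0% of all genes tested were lower and 23.7% higher. The markers were listed with earlier results of these data known. The study itself names some of them as downregulated here, among them Six2, Cited1 and Csf1r, so the counts are not an independent readout. Stroma markers were split and erythroid markers were not called in the main fit, with median log2 fold changes of -0.19 and -0.59. The 10 nephron progenitor markers all fell, and their summed level went from between 995 and 1226 CPM under DMSO to between 285 and 350.2 CPM under CHIR99021. Of the 10 ureteric epithelium markers 7 fell, from 891 to 1075 CPM in sum to between 535 and 631 CPM. All 8 endothelial markers fell, from 433 to 599.7 CPM to between 173 and 233 CPM, and all 9 tested macrophage markers of 10, from 85.1 to 362 CPM to between 28.2 and 69.0 CPM. Of 8 stroma markers 3 rose and 3 fell, and their sum, carried mainly by Col1a1 and Col3a1, went from between 3904 and 5115 CPM to between 7355 and 8983 CPM. Of 8 erythroid markers 4 were tested and 0 were called without the pair as a block, with sums of 8.33 to 27.4 CPM and 7.24 to 16.8 CPM. With the pair as a block, 2 of the 4 were called lower, Hbb-bt (edgeR adjusted p = 0.0056) and Hba-a1 (edgeR adjusted p = 0.018). No listed marker was at 0 in every sample of the CHIR99021 group, and the nephron progenitor and ureteric markers of the labelled tissue were present in all control samples. DMSO replicate 4 stood apart from the other controls in the macrophage markers (85.1 CPM against at least 299.8 CPM), and without it 22 S-phase and 14 mitotic members were called lower. Of all genes, 4058 were called lower without that sample, against 4180 with all samples. The part of these cell types in the lower level of the replication and mitosis genes was not tested.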

How the data were processed

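RNA sequencing of 8 mouse embryonic kidney samples (4 per group) was analysed from 2 tables, 1 of counts and 1 of FPKM values. Per the labels and the paper's methods, the authors filtered reads, mapped them to GRCm38 (HISAT2 2.0.5) and used featureCounts; the deposited counts are unscaled whole numbers. The deposited FPKM values are the authors' counts per gene length and library size. The labels and the paper name different RNA and library kits. The authors' own columns for the comparison (mean, fold change, p-value, adjusted p-value and calls) were not used.

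Genes passing filterByExpr (minimum count 10, minimum total 15), 16723 of 30890, were scaled by TMM and compared with edgeR 4.0.16's quasi-likelihood test in R 4.3.3 with no term but the group, with Benjamini-Hochberg adjustment over every gene tested. The fit was checked on simulated data. A depth of 14599082 to 17751992 counts per sample was reached. The SE of a log2 fold change was derived as its absolute value divided by the square root of the F statistic of that test. Log2 CPM used a prior count of 2. Replicate numbers were taken as pairs because the study used the left and right kidney of each embryo; deviations from the group means correlated across genes at 0.111 to 0.346 between equal numbers and at -0.180 to 0.0766 between unequal ones. No samples were identical (correlations of 0.923 to 0.991 between samples).

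Alternatives were DESeq2 1.42.0, a block for the pair, upper-quartile or RLE scaling, limma 3.58.1 (voom, log2 counts with a pseudocount of 1, log2 FPKM with pseudocounts of 1 and 0.1), other filters and omitted samples. The limma fits on log2 counts used normalizeBetweenArrays, as the study describes for its log2 values. They are alternatives here, since counts call for a count model. The study does not say plainly whether its log2 values were counts or FPKM, and the FPKM fits here had no such normalization. The members and lists were chosen with earlier results of these data known. Values in every sample are given for the members with the smallest and largest p of each role and for Pcna, Mki67, Top2a, E2f1 and Depdc1a; of each cell cycle list, up to 3 genes with the smallest p and up to 3 called in the opposite direction are named, except 1 gene that is not reported here. Overlaps and shared 50-base stretches were computed from GENCODE M21, which places 48 of the 49 members at the same coordinates. Over 10% of the stretches were shared with other genes for 11 members, among them Plk1 and Cdc20.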

Additional observations from a re-analysis of the deposited data

Results flagged for a closer look

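In 102 groups of 4 samples (the members' CPM within each treatment group and the class levels), the highest and lowest samples were compared with the rest by Dixon's ratio of gap to range at its 95% critical value, which chance passes in about 1 of 20 groups. In 2 groups a sample passed, and both were CHIR99021 replicate 2. Rrm1 stood at 171 CPM in that sample and at 189 to 192 CPM in the other treated samples (ratio 0.888). Uhrf1 stood at 84.4 CPM there and at 110 to 113 CPM in the others (ratio 0.892). Both members were called lower without that sample as well.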

How the results depend on the processing

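The members called lower numbered 24 S-phase and 15 mitotic in the edgeR fit, and no member was called higher under any alternative. Of the 39 called members, 30 kept the call in all 12 alternatives that used all samples, 28 also without each sample in turn, and none of the 39 changed sign. With the pair of kidneys as a replicate block, 23 S-phase and 14 mitotic members were called lower (26.2% of all genes lower, 24.5% higher); Rfc4 and Depdc1a lost their call and no other member's call changed. With each sample left out in turn, 20 to 23 S-phase and 12 to 16 mitotic members were called lower, with medians of -0.35 to -0.27 and -0.37 to -0.25. Of all genes, 3877 to 4064 were called lower in those fits. With replicates 1 and 3 only, 12 S-phase and 11 mitotic members were called lower, and with replicates 2 and 4 only, 17 and 6; fewer samples entered both, and why the classes differed between them was not tested. Over all genes, 4180 were lower and 3958 higher in the fit of all samples. With replicates 1 and 3 only, 2794 were lower and 2404 higher, and with replicates 2 and 4 only, 2670 and 2331. The split was 4747 lower and 3366 higher with upper-quartile scaling, where the median of all genes was -0.05. With limma on FPKM values it was 6032 and 2520 with a pseudocount of 1, and 5899 and 2437 with a pseudocount of 0.1. There the median of all genes shifted to -0.10 and -0.13, and that of the S-phase members to -0.395 and -0.44. The FPKM values had no scaling between samples beyond library size. The TMM factors of the edgeR fit were 1.04 to 1.06 for DMSO and 0.95 to 0.96 for CHIR99021. The shifts were not tested further. The limma fit on log2 counts called 21 S-phase and 13 mitotic members lower, and 19 and 11 with the block. Gins4, Prim1, Birc5 and Plk1 lost their call in that fit with the block (limma adjusted p of 0.062, 0.053, 0.059 and 0.077). They kept it in the other fits of all samples. Of all genes, the limma fit on log2 counts called 3873 lower, and 3638 with the block, and the median of all genes was 0.04 in both.

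Members that were not called took the other sign in places. Bub1b was at -0.011 with upper-quartile scaling, -0.025 with limma on log2 counts (with and without the block), -0.10 and -0.11 on the FPKM scale with pseudocounts of 1 and 0.1, and between -0.030 (without CHIR99021 replicate 4) and 0.11 (without CHIR99021 replicate 2) with samples omitted. E2f1 was at -0.050 and -0.055 on the same FPKM scales. Gins2 was at 0.012 and Gins3 at 0.076 with limma on log2 counts (with and without the block), Gins2 at 0.024 with replicates 2 and 4, Gins3 at 0.0090 without DMSO replicate 3, and Cdt1 at 0.021 with replicates 1 and 3.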
